A study of Mus musculus with 6 samples.

Results

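The 26S proteasome is the complex that degrades proteins tagged with ubiquitin, and the RNAs of its subunits were measured in mouse pancreatic islets after a high fat diet and after a normal diet. The members are 31 genes taken by name, 7 of the alpha ring and 7 of the beta ring of the 20S core, and 6 ATPases and 11 non-ATPase subunits of the 19S regulatory particle. Of these, 29 were used out of 39470 loci in the deposited counts, and all 29 passed the filter on low counts. Psmb3 (beta ring) and Psmd6 (lid of the 19S particle) were left out, because other loci shared 100% of the exonic bases of each. The islets came from C57BL/6 mice, an inbred laboratory strain, at an age of 14 weeks and after 8 weeks on either diet, with 3 libraries from the high fat diet and 3 from the normal diet. Strain, age and feeding time were the same in both groups. No label states which animals stand behind a library, so the p-values reflect spread among libraries, part of which may be technical. The count columns abbreviate the high fat group as HDR, which is spelled out nowhere in the sources used here, so every direction given rests on that reading of the column names.

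The core particle is a barrel of stacked rings. Its outer alpha rings hold the gate through which substrates enter, and its inner beta rings hold the protein-cutting sites. The 19S particle caps the barrel: non-ATPase subunits bind and remove ubiquitin chains and give the particle its frame, and a ring of ATPases unfolds the substrate and feeds it into the core. Islet beta cells make large amounts of secreted protein, and chains that fail to fold in the endoplasmic reticulum are passed to the proteasome. Transcription of the subunit genes is raised together by the transcription factor Nfe2l1 when proteasome activity is short.

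The libraries held 106332715 to 135353777 reads counted to loci on the high fat diet and 104657337 to 133633996 on the normal diet, and the 29 subunits took 0.285% to 0.296% and 0.264% to 0.280% of them. High fat library 3 lay at 59.4 on the second principal component, against -32.3 and -25.5 for high fat libraries 1 and 2. Islet hormone genes were abundant in both groups, with Iapp at 58830 ± 5890 CPM on the high fat diet and 35730 ± 803 CPM on the normal diet (SD, n = 3 each). Summed markers of acinar cells overlapped between diets, and those of beta cells did not. The 17 measured of 20 acinar markers summed to 4879 to 10490 CPM in high fat libraries and 3379 to 6580 CPM in normal diet libraries, with 17 of 17 fold changes above 0, at edgeR adjusted p-values of 0.0846 to 0.992. The 6 measured of 10 beta-cell markers summed to 82520 to 102500 CPM on the high fat diet and 57280 to 67210 CPM on the normal diet. Iapp was the largest part of both sums, and 3 markers passed the test upward (Iapp, G6pc2 and Pcsk1). Ins1, Ins2 and Ucn3 overlapped between diets and did not pass (edgeR adjusted p = 0.116, 0.612 and 0.533). Ins1 shared 61.6% and Ins2 18.4% of exonic bases with another locus, so their counts, and the sums, may be too low. The part of beta-cell content in the results below was not tested. Alpha-cell markers ran the other way, with the 4 measured of 6 at 17360 to 21020 CPM in high fat libraries and 22140 to 24450 CPM in normal diet libraries. Gcg made up nearly all of these sums, at means of 18930 and 23100 CPM, and did not pass (edgeR adjusted p = 0.0804). The 2 past the test downward, Irx1 and Irx2, had means of 7.99 and 15.0 CPM on the high fat diet and 15.95 and 21.6 CPM on the normal diet. Of 4 Schwann cell markers 3 were called lower (Sox10, Gfap and Ngfr). The 6 stromal markers were split, with 2 called higher (Rgs5 and Acta2). The others lay below 0 and did not pass, Col1a1 at -1.37, Col1a2 at -0.65, Col3a1 at -0.44 and Pdgfrb at -0.0082. The part of these cell types was not tested either. More cells of a type and more RNA per cell cannot be told apart in such bulk samples.

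Many of the subunit RNAs were higher in high fat islets and none was called lower, with median log2 fold changes of 0.25 to 0.34 in the 4 role groups, whose differences were not tested. By the quasi-likelihood test of edgeR, at a Benjamini-Hochberg adjusted p under 0.05 over all loci, 15 of 29 members (51.7%) were higher, against 5.95% of all 23983 loci tested and 11.1% of the 7975 protein-coding loci of like abundance, those between 8.99 and 240 CPM. Lower calls numbered 0, against 4.86% of all loci and 1.82% of coding loci of like abundance, with 0 at an unadjusted p under 0.05 and 0 by DESeq2 and by limma voom. The changes called were between 0.28 and 0.45 on the log2 scale, that is 1.21-fold to 1.37-fold, at adjusted p-values of 0.0271 to 0.0473. The 3 high fat libraries all lay above the 3 normal diet libraries in 20 members (69.0%), against 18.8% of all loci and 35.4% of coding loci of like abundance, and the reverse order was seen in 0 members, against 20.4% and 7.7%. The median log2 fold change was 0.30 over the members, against -0.050 over all loci and 0.13 over coding loci of like abundance, and 27 of 29 members were above 0, against 45.5% and 70.6%.

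How many members passed depended on single libraries. Without high fat library 1 or 2 edgeR called 0 members, beside 0.377% and 0.225% of all loci higher, and without any one of the normal diet libraries it called 0 members, beside 0% of all loci. In these 5 fits 15 to 18 members had an unadjusted p under 0.05, all upward. At that cut lay 5500 to 7029 of 24558 to 25280 loci, in either direction. Member medians were 0.26 to 0.30. Without high fat library 3 it called 25 members, beside 12.4% of all loci higher and 25.4% of coding loci of like abundance, at a median of 0.33.

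**Figure D1:**
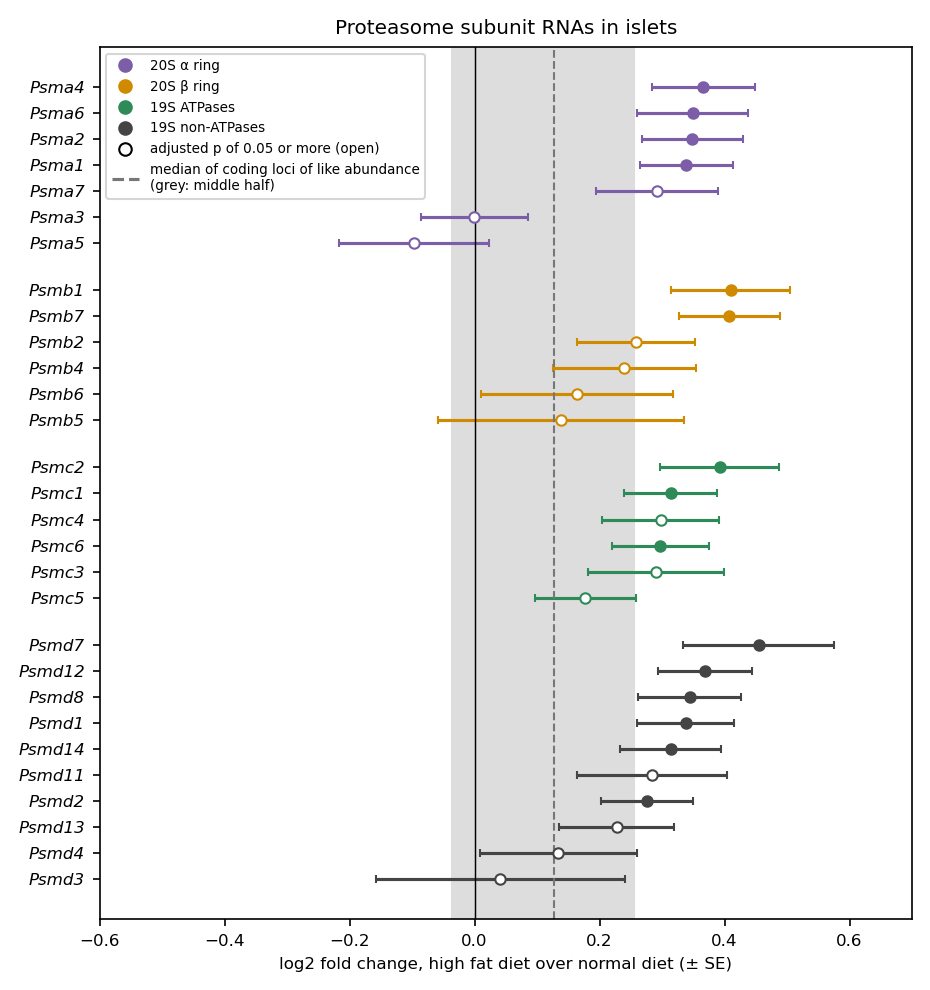
Log2 fold change of each of the 29 subunit RNAs, high fat diet over normal diet, with bars of 1 SE (n = 3 libraries each), grouped by role; filled points passed an adjusted p of 0.05 in edgeR's quasi-likelihood test. The dashed line is the median of 7975 protein-coding loci of like abundance (0.13) and the grey band their interquartile range. Most points lie between 0.2 and 0.4, with Psma3 and Psma5 at or below 0; scaled by library totals alone, Psmb5, Psmb6, Psmc5, Psmd3 and Psmd4 fall below 0 as well.

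The alpha ring had 7 measured members, of which 4 rose and 0 fell, with a median log2 fold change of 0.34. Psma4, whose counterpart in yeast lies at the centre of the closed gate, stood at 56.4, 62.2 and 61.7 CPM in high fat libraries 1, 2 and 3, against 47.5, 44.9 and 47.4 CPM in normal diet libraries 1, 2 and 3. Its log2 change of 0.37 (SE 0.082, edgeR adjusted p = 0.0331) was the largest of the ring, and the groups did not overlap. Psma1 and Psma2, structural subunits of the ring, behaved alike in each library. Psma1 had 144, 154 and 154 CPM in the high fat libraries and 118, 115 and 124 CPM in the normal diet libraries, in the same library order as all values that follow (log2 fold change 0.34, SE 0.074, edgeR adjusted p = 0.0319). Psma2 had 117, 125 and 125 CPM on the high fat diet and 94.1, 91.1 and 103 CPM on the normal diet (log2 fold change 0.35, SE 0.081, edgeR adjusted p = 0.0349). In both, the lowest high fat library was above the highest normal diet library, and normal diet library 3 was the highest of its group. Psma6 reached 106, 111 and 122 CPM in high fat islets, against 87.0, 83.9 and 95.3 CPM in normal diet islets (log2 fold change 0.35, SE 0.089, edgeR adjusted p = 0.0430).

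The other 3 alpha subunits did not pass. Psma7, at 119, 129.8 and 105 CPM on the high fat diet and 101, 89.9 and 99.0 CPM on the normal diet, had a log2 fold change of 0.29 with no overlap between diets (edgeR adjusted p = 0.0819). Psma3 was the member nearest to 0. It had 29.4, 29.7 and 30.6 CPM in high fat libraries and 29.8, 28.9 and 30.9 CPM in normal diet libraries, with log2 fold change -0.0004 (SE 0.085, edgeR adjusted p = 0.998). Its sign turned between settings. Psma5, with 9.44, 8.05 and 8.58 CPM on the high fat diet and 8.85, 9.19 and 9.83 CPM on the normal diet, had the lowest value of all members, -0.097 (SE 0.12, edgeR adjusted p = 0.614). Its groups overlapped, and its value stayed below 0 in all 20 settings fitted.

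Of 6 measured beta ring members 2 rose and 0 fell, with a median of 0.25. Psmb7 carries the trypsin-like cutting site. It had 111, 118 and 117 CPM in high fat libraries and 85.6, 82.4 and 92.9 CPM in normal diet libraries, and its log2 change of 0.41 (SE 0.081) had the smallest adjusted p of any member (edgeR, 0.0271). Psmb1, a subunit without a cutting site, had 185, 193 and 159 CPM on the high fat diet against 132, 128 and 145 CPM on the normal diet (log2 fold change 0.41, SE 0.095, edgeR adjusted p = 0.0351). No library of one diet reached into the range of the other for either gene. Psmb2 and Psmb4, further subunits without a cutting site, stood at 0.26 and 0.24 (edgeR adjusted p = 0.102 and 0.184), the second with overlapping libraries.

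The other catalytic subunits did not pass, and high fat library 3 lay below every normal diet library in both. Psmb5, the chymotrypsin-like site, had 28.0, 28.9 and 16.3 CPM in high fat libraries 1, 2 and 3, against 21.1, 21.8 and 23.6 CPM in normal diet libraries 1, 2 and 3. High fat libraries 1 and 2 were thus above all normal diet libraries and library 3 below them, and the log2 fold change was 0.14 (SE 0.20, edgeR adjusted p = 0.663). Psmb6, the caspase-like site, showed the same order of libraries, with 129.9, 136 and 86.2 CPM on the high fat diet and 105, 102 and 106 CPM on the normal diet (log2 fold change 0.16, SE 0.15, edgeR adjusted p = 0.493). Without high fat library 3 both passed, at 0.37 and 0.35 (edgeR adjusted p = 0.0190 and 0.00866).

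The 6 ATPases, which form one ring at the base of the 19S particle, spread least, with 3 higher, 0 lower, a median of 0.30 and an interquartile range of 0.29 to 0.31. Psmc2 had the largest change, with 97.5, 81.3 and 95.5 CPM in high fat libraries against 67.5, 74.4 and 67.2 CPM in normal diet libraries (log2 fold change 0.39, SE 0.096, edgeR adjusted p = 0.0393). Psmc1, whose tail helps to open the core's gate in yeast, had 86.5, 90.6 and 87.5 CPM on the high fat diet and 70.7, 69.4 and 72.8 CPM on the normal diet. It rose by 0.31 (SE 0.074, edgeR adjusted p = 0.0356), and its high fat libraries lay close together and clear of the others. Psmc6 had 144, 149 and 158 CPM in high fat islets and 126, 116 and 125 CPM in normal diet islets (log2 fold change 0.30, SE 0.078, edgeR adjusted p = 0.0451). Psmc3 and Psmc4 had changes of the same size, 0.29 and 0.30, with wider spread (edgeR adjusted p = 0.107 and 0.0708). Psmc5 was the ATPase nearest to 0, at 104, 103 and 92.1 CPM on the high fat diet and 89.8, 86.4 and 88.9 CPM on the normal diet (log2 fold change 0.18, SE 0.081, edgeR adjusted p = 0.169). Its libraries did not overlap, and 41.8% of its exonic bases were shared with the locus of Smarcd2, so its count may cover the unshared part alone.

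Among 10 measured non-ATPase subunits 6 rose and 0 fell, with a median of 0.30. This group held the largest change of all members, that of Psmd7, and a change near 0, that of Psmd3. Psmd14 is the enzyme that cuts ubiquitin chains off the substrate, and Psmd7 is its partner in the lid. Psmd7 had 59.4, 47.9 and 53.2 CPM in high fat libraries and 38.7, 44.3 and 34.2 CPM in normal diet libraries, with log2 fold change 0.45 (SE 0.12, edgeR adjusted p = 0.0473). Psmd14 had 94.2, 103 and 95.5 CPM on the high fat diet and 80.6, 73.9 and 80.8 CPM on the normal diet (log2 fold change 0.31, SE 0.081, edgeR adjusted p = 0.0433). Neither gene had overlapping libraries.

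Psmd12, a frame subunit of the lid, rose with little spread, at 109, 112 and 117 CPM in high fat libraries and 90.1, 87.3 and 84.5 CPM in normal diet libraries (log2 fold change 0.37, SE 0.075, edgeR adjusted p = 0.0275). Psmd8, also of the lid, had 111, 116 and 107 CPM on the high fat diet against 81.3, 91.0 and 90.1 CPM on the normal diet (log2 fold change 0.34, SE 0.082, edgeR adjusted p = 0.0364). Psmd1 and Psmd2 are the large scaffold proteins of the base, and Psmd2 also docks shuttle proteins that bring ubiquitinated substrates. Psmd1 had 258, 256 and 288 CPM in high fat islets, the highest in library 3, and 213, 215 and 208 CPM in normal diet islets (log2 fold change 0.34, SE 0.078, edgeR adjusted p = 0.0345). Psmd2 had the smallest change that passed, 0.28 (edgeR adjusted p = 0.0471). Psmd4, a receptor for ubiquitin chains, had 101, 113 and 79.2 CPM on the high fat diet, with library 3 below every normal diet library, and 91.3, 84.3 and 91.7 CPM on the normal diet, overlapping (log2 fold change 0.13, edgeR adjusted p = 0.493). Without high fat library 3 it passed, at 0.27 (edgeR adjusted p = 0.0363). The lid subunits Psmd11 and Psmd13 stood at 0.28 and 0.23 (edgeR adjusted p = 0.143 and 0.130). Psmd3, a lid subunit, had 96.0, 83.9 and 52.6 CPM on the high fat diet and 68.4, 86.6 and 70.9 CPM on the normal diet, again with high fat library 3 below every normal diet library (log2 fold change 0.041, SE 0.20, edgeR adjusted p = 0.908).

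The role groups took similar shares of the subunits' counts on both diets. The alpha ring took 18.36%, 18.98% and 20.42% in high fat libraries 1, 2 and 3, and 19.17%, 18.36% and 19.42% in normal diet libraries 1, 2 and 3. The beta ring took 22.67%, 23.17% and 20.04% on the high fat diet and 21.7%, 21.5% and 22.74% on the normal diet, lowest in high fat library 3. The ATPases took 20.7% to 21.2% on the high fat diet and 20.7% to 21.3% on the normal diet, and the non-ATPases 37.1% to 38.4% on the high fat diet and 37.2% to 39.3% on the normal diet. All 4 shares overlapped between diets. Summed over the 29 genes, the level was 3167, 3261 and 2977 CPM in high fat libraries and 2537, 2522 and 2621 CPM in normal diet libraries, a ratio of 1.225. Scaled by library totals alone the sums were 2946, 2963 and 2853 CPM against 2799, 2644 and 2798 CPM, a ratio of 1.063, and the diets still did not overlap.

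**Figure D2:**
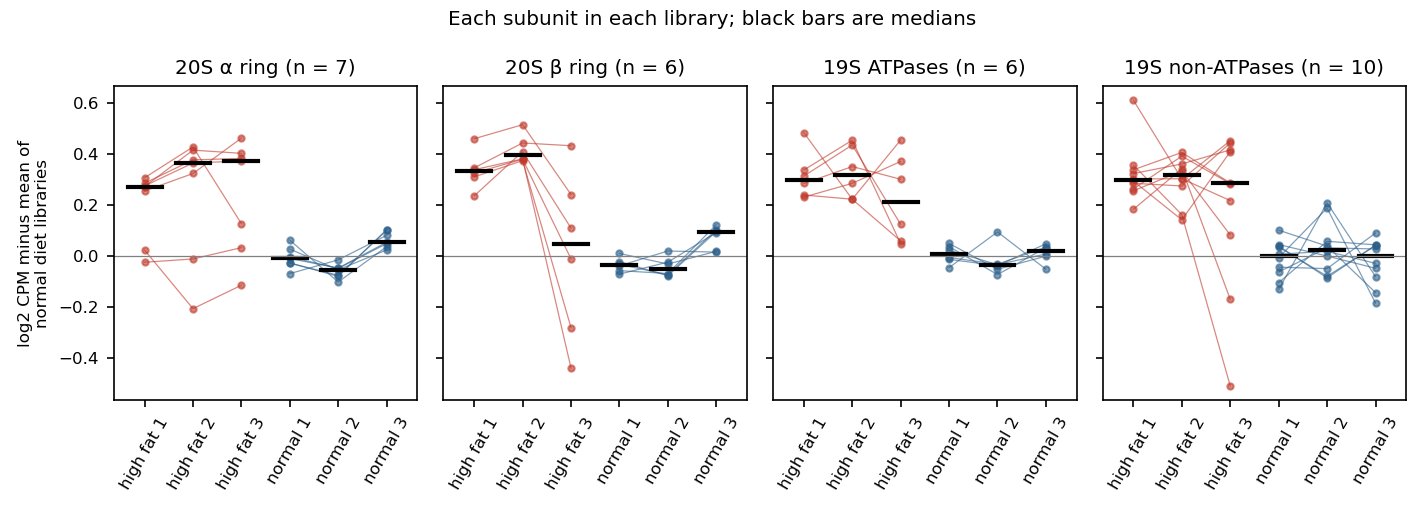
Each line is a subunit and each point its log2 CPM in a library minus its mean over the 3 normal diet libraries, in panels by role, with black bars at the median of each library. High fat libraries 1 and 2 sit near 0.3 in all panels (medians 0.27 to 0.40), while high fat library 3 has a median of 0.37 in the alpha ring and 0.050 in the beta ring; lines join values of a gene and imply no order of libraries.

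The distance of high fat library 3 from the other high fat libraries went with the base composition of the transcript. High fat library 1 lay above all normal diet libraries in 27 members, library 2 in 26 and library 3 in 20, and library 3 lay below all of them in 5. Relative to the mean of libraries 1 and 2, library 3 was lower in 18 members, whose transcripts had a median GC content of 52.1%, and higher in 11, whose median was 41.3%. The largest gaps were those of Psmb5, at -0.80 on the log2 scale with 56.6% GC, Psmd3, at -0.77 with 55.4%, and Psmb6, at -0.62 with 51.6%. At the other end Psmd11 (39.9% GC) was 0.19 higher and Psma6 (46.6% GC) 0.17 higher in library 3. Across the 29 members, Spearman's rho between this gap and GC content was -0.83, and across 7975 coding loci of like abundance it was -0.74, so that the members shared the trend of the library. With a GC trend removed from each library, in a fit of coding loci alone, 15 members again passed, beside 11.4% of all coding loci called higher, and 10 of the 15 were the same genes. Psma7, Psmb2, Psmc3, Psmc4 and Psmd13 were gained, Psma2, Psmc2, Psmc6, Psmd7 and Psmd14 were lost, and the median was 0.26.

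**Figure D3:**
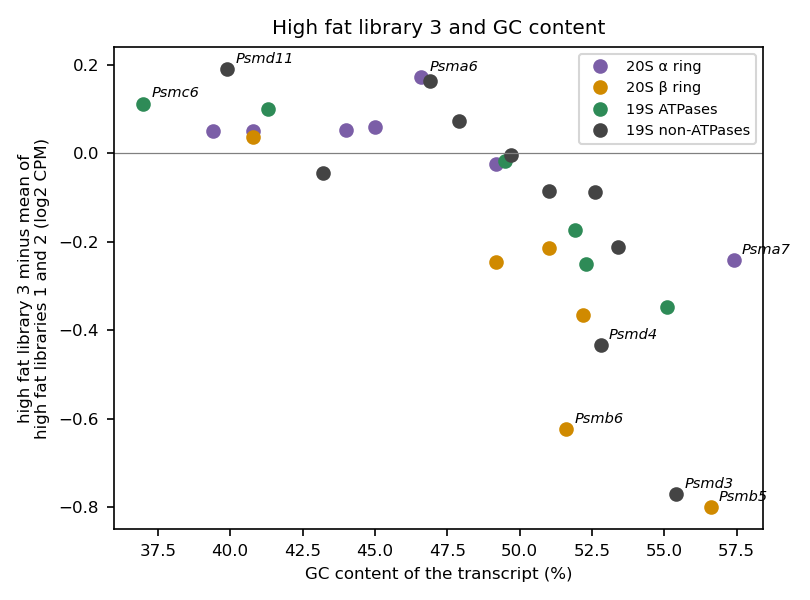
GC content of each subunit's transcript (x axis, percent) against the log2 CPM of high fat library 3 minus the mean of high fat libraries 1 and 2 (y axis), one point per subunit, coloured by role. Points lie between 0.038 and 0.19 up to a GC content of 41.3%, and reach down to -0.80 for Psmb5 at 56.6% (Spearman's rho -0.83 over 29 genes of the same libraries).

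The scaling of the libraries set how many subunits passed. TMM factors, which set aside loci with extreme changes, were 0.930, 0.909 and 0.958 for high fat libraries 1, 2 and 3 and 1.10, 1.05 and 1.07 for normal diet libraries 1, 2 and 3. With library totals alone the median of all loci was -0.25, against -0.050 with TMM, and that of the members 0.092. Psmb5, Psmb6, Psmc5, Psmd3 and Psmd4 were then below 0. EdgeR then called 0 members, beside 300 of the 23983 loci higher. At an unadjusted p under 0.05 lay 1 member higher and 1 lower, beside 8044 of the loci in either direction. With upper quartile factors the member median was 0.23 and 0 passed, beside 2.34% of all loci higher. There 17 members had an unadjusted p under 0.05, beside 7115 of the 23983 loci in either direction. RLE size factors gave a member median of 0.32 and the same 15 genes, beside 6.93% of all loci higher. DESeq2 called 17, the same 15 with Psma7 and Psmc4 added, beside 11.8% of all loci higher, and limma voom called the same 15, beside 5.77%. Another scaling shifts all loci by nearly the same amount, so the distance between medians is nearly fixed across scalings and is no sign of stability there. In every setting over all loci the member median lay 0.32 to 0.37 above that of all loci, and in every setting it lay 0.14 to 0.21 above that of coding loci of like abundance. The mean acinar marker level as covariate gave a member median of 0.30, but 0 members and 0 of all loci passed edgeR's adjusted test. There 18 members had an unadjusted p under 0.05, beside 4904 of the 23983 loci in either direction.

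**Figure D4:**
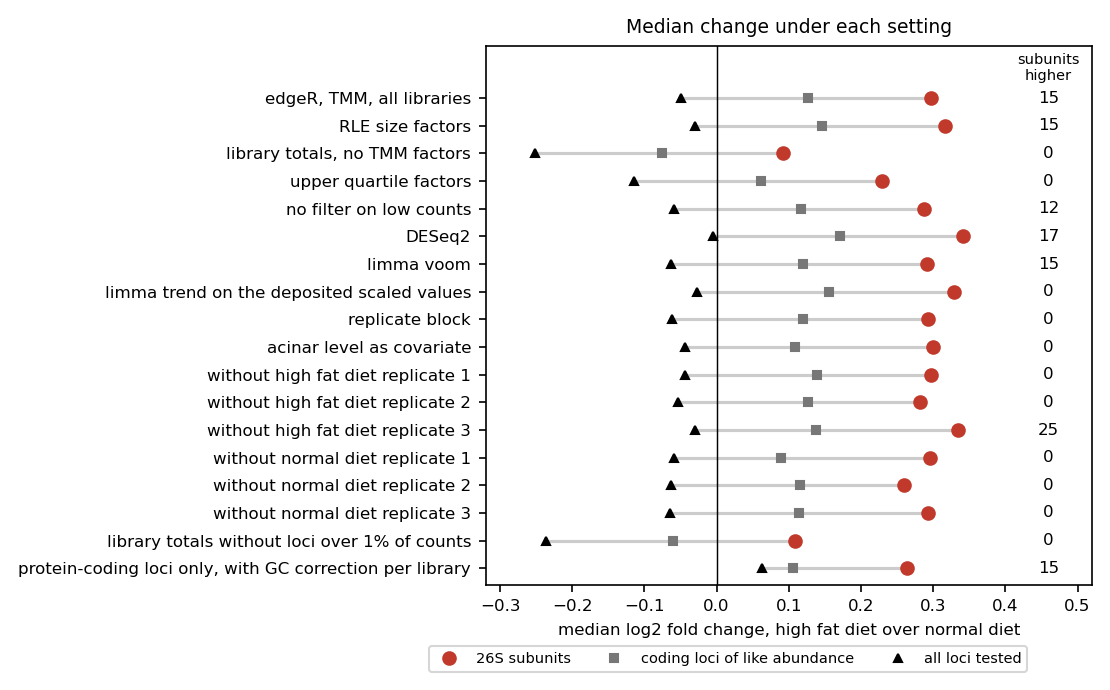
Median log2 fold change, high fat diet over normal diet, of the 29 subunits (red circles), of protein-coding loci of like abundance (grey squares) and of all loci tested (black triangles) under each normalisation, test and set of libraries; the numbers at the right are subunits called higher. Red circles lie right of the squares in every row, also where both shift left with library totals (0.092 for the subunits and -0.076 for coding loci), while the number called lies between 0 and 25.

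Levels per length differed far more between subunits than between diets. As CPM per kb of exon, averaged over the 6 libraries, the members ran from 3.26 for Psmd11 to 182 for Psmb4, a 56.0-fold range with a median of 50.2. Per kb of the longest transcript the range was 36.3-fold. Psmb4, Psmb1 at 145, Psma7 at 118, Psma2 at 115, Psmb6 at 107 and Psma6 at 101 led, all of them subunits of the core. Next above Psmd11, at the low end, came Psma5 at 7.39, Psma3 at 11.7, Psmd3 at 19.6 and Psmd7 at 20.3. Medians per role were 74.1 for the alpha ring, 69.2 for the beta ring, 51.0 for the ATPases and 46.3 for the non-ATPases. The ATPases were the most even, between 37.4 for Psmc5 and 62.2 for Psmc3. The level of Psmc5 was divided by all its exonic bases, of which 41.8% were shared with another locus. Its level may therefore be too low, and its place as the lowest ATPase is uncertain.

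**Figure D5:**
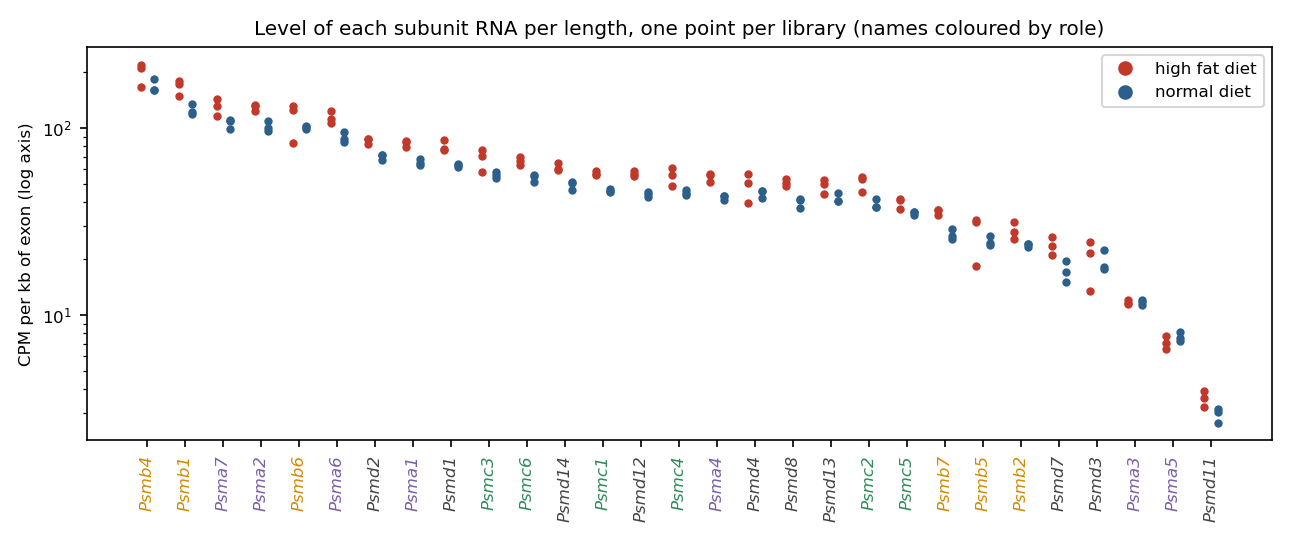
Level of each subunit RNA in CPM per kb of exon (log axis), one point per library, high fat diet in red left of normal diet in blue, with genes ordered from highest to lowest mean. Psmb4 (182 on average) and Psmb1 (145) head the order and Psmd11 (3.26) ends it, and for most genes the red points sit just above the blue ones; by library totals alone Psmb5, Psmb6, Psmc5, Psmd3 and Psmd4 turn the other way.

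Reads of some subunits could have come from, or been lost to, near copies elsewhere in the genome. Other genes' transcripts, with pseudogenes among them, matched at least 25% of the transcript at 95% identity or more in 7 members: Psmd2 (91.9%), Psmb5 (88.4%), Psmc1 (82.0%), Psma5 (76.5%), Psma4 (66.9%), Psma3 (32.5%) and Psmb6 (27.4%). Of 8 other genes that matched Psma3, 3 were pseudogenes, and the rest included Il17f and Olfr361, so these matches need not be copies of the subunit. Values of the 7 members are therefore uncertain. Psma3 and Psma5, the only members not above 0, are among them. The 7 had a median log2 fold change of 0.16 with 3 higher, Psmd2, Psmc1 and Psma4. The other 22 had a median of 0.31 with 12 higher and all 22 above 0. Psmb5 and Psmb6 are also among the 7, and both were low in high fat library 3. The part of near copies in these changes was not tested.

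The immune forms of the catalytic subunits gave fold changes below 0, and edgeR, DESeq2 and limma voom called 0 of them. Scaled by library totals alone, edgeR called Psmb8 and Psmb9 lower, at -0.43 and -0.56 (edgeR adjusted p = 0.044 and 0.0259). That scaling also called 3039 of all 23983 loci lower, against 1165 with TMM. The median of all loci was then -0.25, against -0.050 with TMM. Psmb8, Psmb9 and Psmb10 are induced by interferon and take the places of Psmb5, Psmb6 and Psmb7, and in these islets each was below its standard partner per length. Psmb9 had 5.44, 5.73 and 5.35 CPM in high fat libraries and 6.99, 6.73 and 7.38 CPM in normal diet libraries, with log2 fold change -0.35 (SE 0.12, edgeR adjusted p = 0.0848). Psmb8 had 13.9, 13.3 and 13.0 CPM on the high fat diet against 15.5, 14.2 and 17.4 CPM on the normal diet (-0.23, SE 0.11, edgeR adjusted p = 0.200). In both genes every high fat library was below every normal diet library, but neither passed. That order was seen in 20.4% of all loci and 7.7% of coding loci with abundances like those of the subunits. Psmb10 stood at 13.1, 15.1 and 7.396 CPM in high fat islets and 14.8, 14.6 and 15.0 CPM in normal diet islets, overlapping (-0.32, SE 0.23, edgeR adjusted p = 0.364). High fat library 3 set that value, and without it the change was -0.061 (edgeR adjusted p = 0.7).

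Ratios within a library do not depend on the scaling. Per kb of exon, Psmb9 was 4.09%, 4.12% and 6.07% of Psmb6 in high fat libraries 1, 2 and 3, against 6.47%, 6.41% and 6.80% in normal diet libraries 1, 2 and 3. Psmb10 was 30.2%, 32.6% and 16.0% of Psmb7 on the high fat diet and 43.9%, 45.2% and 41.1% on the normal diet. The last pair was lowest in high fat library 3. These 2 pairs did not overlap between diets, with or without that library. Transcript GC content was 56.5% for Psmb10 and 40.8% for Psmb7, and 54.1% for Psmb9 and 51.6% for Psmb6. The part of the GC trend in these ratios was not tested. Psmb8 was 30.5%, 28.4% and 48.8% of Psmb5 on the high fat diet and 45.2%, 40.2% and 45.4% on the normal diet, where high fat library 3, low in Psmb5, lay above all others. By an exact two-sided permutation test of the log2 ratio, p was 0.1 for Psmb9 over Psmb6, 0.1 for Psmb10 over Psmb7 and 0.4 for Psmb8 over Psmb5 (0.15, 0.15 and 0.4 adjusted over the 3 ratios), and 0.1 is the smallest p that 3 libraries per diet allow. Of 6 markers of macrophages, which express immune subunits, 5 were measured. They summed to 108 to 120.2 CPM in high fat libraries and 129 to 140 CPM in normal diet libraries. Cd74 made up most of the sum, at means of 75.6 and 90.2 CPM (edgeR adjusted p = 0.0581). Only 1 of 5 passed, downward (Csf1r, at a locus of 48939 exonic bases, which holds more than that gene). Adgre1, Ptprc and Itgam overlapped between diets (edgeR adjusted p = 0.78, 0.957 and 0.738). The part of macrophages in these values was not tested.

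Genes that work with the proteasome were read from the same test. Of 50 listed, 41 could be used, of which 5 rose (12.2%) and 1 fell (2.44%), against 5.95% and 4.86% of all loci and 11.1% and 1.82% of coding loci with abundances like those of the subunits. The share that rose was thus near that of such coding loci. Without high fat library 1 or 2 or any one of the normal diet libraries edgeR called 0 of the 41. These fits called 0% to 0.377% of all loci higher. With library totals edgeR called 0 higher and 5 lower, beside 300 and 3039 of all 23983 loci. Leaving out high fat library 3 gave 18 higher calls and 2 lower ones. In that fit 12.4% of all loci and 25.4% of coding loci of like abundance were called higher. Among 8 measured 19S-associated proteins 2 rose, with a median of 0.29. Uchl5, a deubiquitinating enzyme bound to the 19S particle, had 31.9, 33.2 and 34.0 CPM in high fat libraries and 24.5, 25.3 and 22.7 CPM in normal diet libraries (log2 fold change 0.45, SE 0.090, edgeR adjusted p = 0.0272). Ube3c, a ubiquitin ligase that acts at the proteasome, rose by 0.31 (SE 0.081, edgeR adjusted p = 0.0453). Usp14, the other deubiquitinating enzyme of the particle, stood at 0.28 (edgeR adjusted p = 0.0615) and did not pass, with libraries that did not overlap. The locus of Usp14 shares 39.1% of its exonic bases with another, so its count may cover the unshared part alone.

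Of 5 activators and inhibitors 1 rose. Psme4, an activator that caps the core in place of the 19S particle, had 291, 299.8 and 328 CPM on the high fat diet and 248, 239 and 231 CPM on the normal diet (log2 fold change 0.36, SE 0.079, edgeR adjusted p = 0.0325). Psme1 and Psme2, the interferon-induced activator pair, stood at -0.13 and -0.31 (edgeR adjusted p = 0.415 and 0.156), and Psme3 and the inhibitor Psmf1 at 0.090 and -0.031. Of 7 assembly chaperones 1 rose and 1 fell. Pomp, which helps the beta ring form and mature, had 83.6, 86.2 and 82.5 CPM in high fat libraries and 67.8, 67.9 and 72.2 CPM in normal diet libraries (log2 fold change 0.28, SE 0.075, edgeR adjusted p = 0.0485). Psmg4, a chaperone of alpha ring assembly, fell, with 25.4, 23.5 and 22.6 CPM on the high fat diet and 40.4, 33.4 and 29.5 CPM on the normal diet (-0.53, SE 0.13, edgeR adjusted p = 0.0368), but the locus that carries its name spans 49885 exonic bases and holds more than that gene. Of 10 shuttle and segregase genes, which carry ubiquitinated proteins to the proteasome, 0 passed edgeR's test. Of these, 7 had an unadjusted p under 0.05, all upward, beside 7623 of all 23983 loci in either direction. DESeq2 called 6 higher and limma voom 1, beside 11.8% and 5.77% of all loci. Vcp, which pulls proteins out of membranes and complexes, had the largest change of the 10, at 0.30 (edgeR adjusted p = 0.0583). Of 4 measured ubiquitin genes and activating enzymes edgeR, DESeq2 and limma voom called 0, with 1 at an unadjusted p under 0.05 in edgeR's test, Uba1 at 0.25.

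Nfe2l1 RNA did not differ beyond the spread between libraries. The gene had 334, 301 and 278 CPM in high fat libraries and 294, 329 and 293 CPM in normal diet libraries, with log2 fold change -0.0044 (SE 0.093, edgeR adjusted p = 0.981), where the diets overlapped. The activity of its protein is known to be set mainly by its retention, deglycosylation and cutting, which RNA counts do not measure. Ngly1, the enzyme that strips sugars from that protein, was the 1 of 7 measured regulators to pass edgeR's test, at 102, 115 and 114 CPM on the high fat diet and 81.0, 79.2 and 87.8 CPM on the normal diet (log2 fold change 0.42, SE 0.085, edgeR adjusted p = 0.0280). Nfe2l2 stood at 0.11 and Mafk, a small partner protein of both factors, at -0.54 (edgeR adjusted p = 0.519 and 0.0516). Mafk was called lower by DESeq2 and by limma voom (adjusted p = 0.0198 and 0.0487), and DESeq2 also called Ngly1 and Vcp higher (adjusted p = 0.00249 and 0.0331). The locus of Mafk spans 16268 exonic bases, so its count may cover more than that gene. It shares 43.5% of these bases with another locus, and reads over the shared part may carry no count.

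Nfe2l1 binds antioxidant response elements, and their core, TGACNNNGC, was looked for on both strands of RefSeq promoters from 250 bases before to 50 bases after the start site, on build GRCm38.p6. Promoters were on hand for 25 of 31 listed members. The core was in 4 of 25 (16.0%), against 14.0% of 27025 genes. The 4 windows are shown because these are the members where the letters occur, each 5′ to 3′ on the gene's strand with the core, or its reverse complement, in capitals.
Psmb5: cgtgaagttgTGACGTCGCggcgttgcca
Psmb6: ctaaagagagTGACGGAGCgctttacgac
Psmc6: ccagccagtaGCTAAGTCAggcattgctc
Psmd12: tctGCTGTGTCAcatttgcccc
They lie at chr14:54618024-54618052 (minus strand), chr11:70525338-70525366, chr14:45329587-45329615 and chr11:107479278-107479299 (all 3 on the plus strand), and the capitals begin at -47, -9, -227 and -247 from the start site in the same order. In Psmc6 and Psmd12 the core reads on the other strand. Of these genes Psmc6 and Psmd12 rose and Psmb5 and Psmb6 did not pass. The CCAAT box, searched in the same way, was in 10 of 25 members (40%) and in 41.1% of genes, and no member held both motifs. A match is a run of letters and not a measured site, and these shares were close to those of all genes.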

How the data were processed

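Total RNA of islets was sequenced in 6 libraries, 3 per diet, from both ends after removal of ribosomal RNA, with a stranded kit and no poly(A) selection, per the labels' protocols. The submitters' processing notes name build mm9 with HTSeq 0.5.4p3, TopHat2 2.0.8, edgeR and Cufflinks 2.1.1, while order, settings and use of strand are not given in the sources used here. The authors deposited raw counts of reads per locus (39470 loci), a table of scaled values, and assembled transcripts with other values, the exon coordinates, in mm9. The deposited scaled signal is the count times 1 constant per library, and 100% of its values gave whole reads within 0.001, equal to the raw counts; edgeR on these recovered reads called the same 1426 loci higher and 1165 lower, and 15 members. All 547 loci wholly covered by exons of the opposite strand had a count of 0, as had Psmb3 and Psmd6, so reads over exons of both strands carry no count there.

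The assembly file gives no gene names, and no annotation of its build was used. Loci were named by matching ordered exon and intron lengths to GENCODE M21 on the same chromosome and strand, taking the locus with most counts, with no conversion of coordinates. These names are an inference from structure, made for 19626 loci that hold 92.2% of counts. Members with over 90% of exonic bases shared with another locus were left out.

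The counts were tested with edgeR 4.0.16 under R 4.3.3 (filterByExpr, TMM, two-sided quasi-likelihood test with diet as the single term, Benjamini-Hochberg over 23983 loci, threshold 0.05) and also with DESeq2 1.42.0 and limma 3.58.1 (voom, and a trend fit on log2 of scaled values plus 1). SE is the absolute log2 fold change over the square root of the F statistic. CPM are TMM-normalised; levels between genes are per kb of the union of exons. The test was checked on simulated counts. Near copies were sought with blastn 2.17.0 in M21 transcripts over at least 100 bases. GC content is that of the matched M21 transcript. In full are given, per role group, up to 4 members past the threshold with the smallest adjusted p, the largest change and the change nearest 0, and, per pathway list, up to 3 past the threshold with Psmb8, Psmb9, Psmb10 and Nfe2l1; other values were added after they had been seen. Members and lists were chosen with earlier results of these data known. Ddi2, Adrm1 and Ufd1 (over 90% shared) and Psmb11, Psmg1, Mafg, Ubb and Ubqln2 (no locus) are not analysed here, and 1 other listed gene is not reported here.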

Additional observations from a re-analysis of the deposited data

How the results depend on the processing

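Of 21 alternatives, some added after seeing the data, 11 gave 0 members called higher and 6 gave 15, of which 4 refits called the same genes; the cause was not tested. EdgeR called 15 members and 1426 loci higher and 1165 lower. Library totals gave 0 members, 300 and 3039 loci, a member median of 0.092 and a summed ratio of 1.063, against 1.225. Totals without loci over 1% of counts, an added choice, gave 0, 333, 2755 and 0.11. Upper quartile factors gave 0 members, 562 higher loci, a median of 0.23 and a ratio of 1.169. Limma on the scaled values gave 0 members and 399 higher loci, DESeq2 2476 higher loci, and a threshold of 0.1 gave 2712 and 2679. The acinar covariate gave 0 members and 0 and 0 loci. Leaving out a library gave 0 to 25 members, 0 to 3075 higher and 0 to 1960 lower loci. In these fits 15 to 26 members had an unadjusted p under 0.05, beside 5500 to 8969 of 24558 to 25280 loci in either direction. The replicate block gave 0 members and 54 and 20 loci. There 19 members had an unadjusted p under 0.05, beside 6767 of all 23983 loci in either direction. No label states that replicate numbers pair the libraries. Deviations of same-numbered libraries correlated at -0.075, 0.075 and -0.014, and high fat library 3 correlated best with normal diet library 1. Such correlations cannot settle, with 3 libraries per diet, whether libraries were paired. With no filter 12 members passed. Members of at most 10% shared bases gave 15.

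Signs turned in members near 0. Psma3 was at 0.019 with RLE factors, 0.044 with DESeq2 and 0.036 with limma on scaled values, and between -0.045 and 0.019 with a library left out. Psmd3 was at -0.16 with library totals, -0.15 with totals without the largest loci, -0.032 with upper quartile factors and -0.0014 with voom, and between -0.14 and 0.26 with a library left out. With library totals, and with totals without the largest loci, Psmb5 was at -0.070 and -0.052, Psmb6 at -0.044 and -0.027, Psmc5 at -0.028 and -0.012, and Psmd4 at -0.074 and -0.057. The smallest library held 104657337 counted reads, and precision is limited by the 3 libraries per diet.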
